A study of Mus musculus with 28 samples.

Results

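Rab GTPases are small membrane-bound switches that give each compartment of the cell its identity. A Rab loaded with GTP recruits effectors that move, tether or fuse vesicles, and GTP hydrolysis returns it to the cytosol. Exchange factors load Rabs with GTP, GTPase-activating proteins of the TBC family switch them off, and Rab escort protein, a prenylating enzyme and GDI attach them to membranes and extract them. In macrophages these switches order the traffic of receptors through endosomes, the maturation of phagosomes and lysosomes, and the secretion of granules and cytokines. The members described here were all genes whose symbol is Rab followed by a number, with or without a letter. The array carried 59 such genes on 112 probes, and 46 of them had a probe detected above the negative control beads (detection p under 0.01) on at least 3 arrays, out of 10630 genes measured by the same filter.

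The 13 members that did not pass the filter were detected on at most 1 of 25 arrays. They were the endosomal Rab17 and Rab25, the phagosomal Rab20, the Golgi members Rab19, Rab2b and Rab30, the exocytic Rab26, Rab27b, Rab37, Rab3b and Rab3c, and Rab23 and Rab40b. The 46 measured members were grouped by the role best known for them. There were 14 of early and recycling endosomes, 7 of late endosomes, lysosomes and autophagy, 5 of phagosomes and lysosome-related organelles, 9 of the endoplasmic reticulum (ER) and Golgi, 7 of exocytosis and granules, and 4 of other or unsettled role.

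RNA was measured on Illumina Mouse WG-6 version 2 bead arrays in yolk-sac macrophages (YSM) of E10.5 embryos and in microglia sorted from brains of the stages E10.5 and E12.5, then E14.5, E16.5 and, last before birth, E18.5, and also on the day of birth (P0) and at 2 months of age (Adult). The labels give the strain as C56BL/6 for every group and the study's methods describe specific-pathogen-free C57BL/6j animals. Column names of the deposited table mark every microglial array as WT, and no treatment is named. Each array was made from a pool of embryos or animals whose sexes were not separated, after a sort for CD45low, CD11b+, F4/80+, CD64+ and Ly6C- cells, and adult suspensions also passed a Percoll gradient. Of 28 labelled samples, 3 adult ones repeated the values of another adult sample in every probe and were counted once, which left 4 YSM arrays and 3 arrays of each microglial group. Nothing in the labels says which animals a pool came from, so p-values measure the spread between these pools. Array numbers below only name arrays.

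Between 13224 and 17937 probes were detected per array, and between 56 and 71 of the 112 Rab probes on the array, of which 72 were kept. Background was 63.9 to 73.4 on YSM arrays and 108 to 155 on brain arrays, so for E10.5 microglia against YSM array background and tissue cannot be told apart. All 9 measured macrophage and microglial markers, Csf1r and Cx3cr1 among them, were detected in every group, and their mean log2 signal per array lay between 10.01 and 10.42 in YSM and between 13.01 and 13.42 in adult microglia. The pools also carried transcripts of other cells. The mean of 9 neuronal markers was 5.34 to 5.62 in YSM, 6.23 to 8.17 at E12.5, 7.67 to 9.51 from E14.5 to P0 and 5.21 to 5.32 in adult microglia. In the adult, Dcx, Gap43, Stmn2, Stmn3, Syt1 and Tbr1 were detected on no array. The other 3 of the 9 were detected on at least 1 adult array, among them Map2 on replicate 2 (6.19) and Mapt on replicate 3 (6.41). The mean of 8 neutrophil and early myeloid markers was 8.74 to 9.53 in YSM and 7.99 to 9.26 at E10.5, against 4.80 to 5.78 from E16.5 onwards. In pooled RNA, a change in the share of a cell type and a change of RNA per cell cannot be told apart.

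Values below are background-corrected, quantile-normalized log2 signals of the probe that stands for a gene, and a change is the later minus the earlier value, ± the standard error of 1 linear model over all arrays (limma, Benjamini-Hochberg adjusted p over 10630 genes). Rose, fell and changed are used only of members with an adjusted p under 0.05. Levels are not compared between genes, since each has its own probe. By the moderated F test over all stages, 43 of 46 Rab genes differed between stages, beside 91% of all genes tested. The exceptions were Rab14 (adjusted p = 0.339), Rab11b (0.235) and Rab10 (0.0558), Rabs of recycling endosomes whose group means spanned 0.28, 0.28 and 0.32. This holds for the brightest probe of each. Averaged over its kept probes, Rab14 rose by 1.53 from E10.5 to the adult (limma, adjusted p = 5.86e-07). The span of group means was over 1 for 29 members and over 2 for 9. Group means were highest in YSM for 10 members, at P0 for 10, at E14.5 or in adult microglia for 7 each, at E18.5 for 5, at E12.5 for 4, at E10.5 for 2 and at E16.5 for 1.

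**Figure D1:**
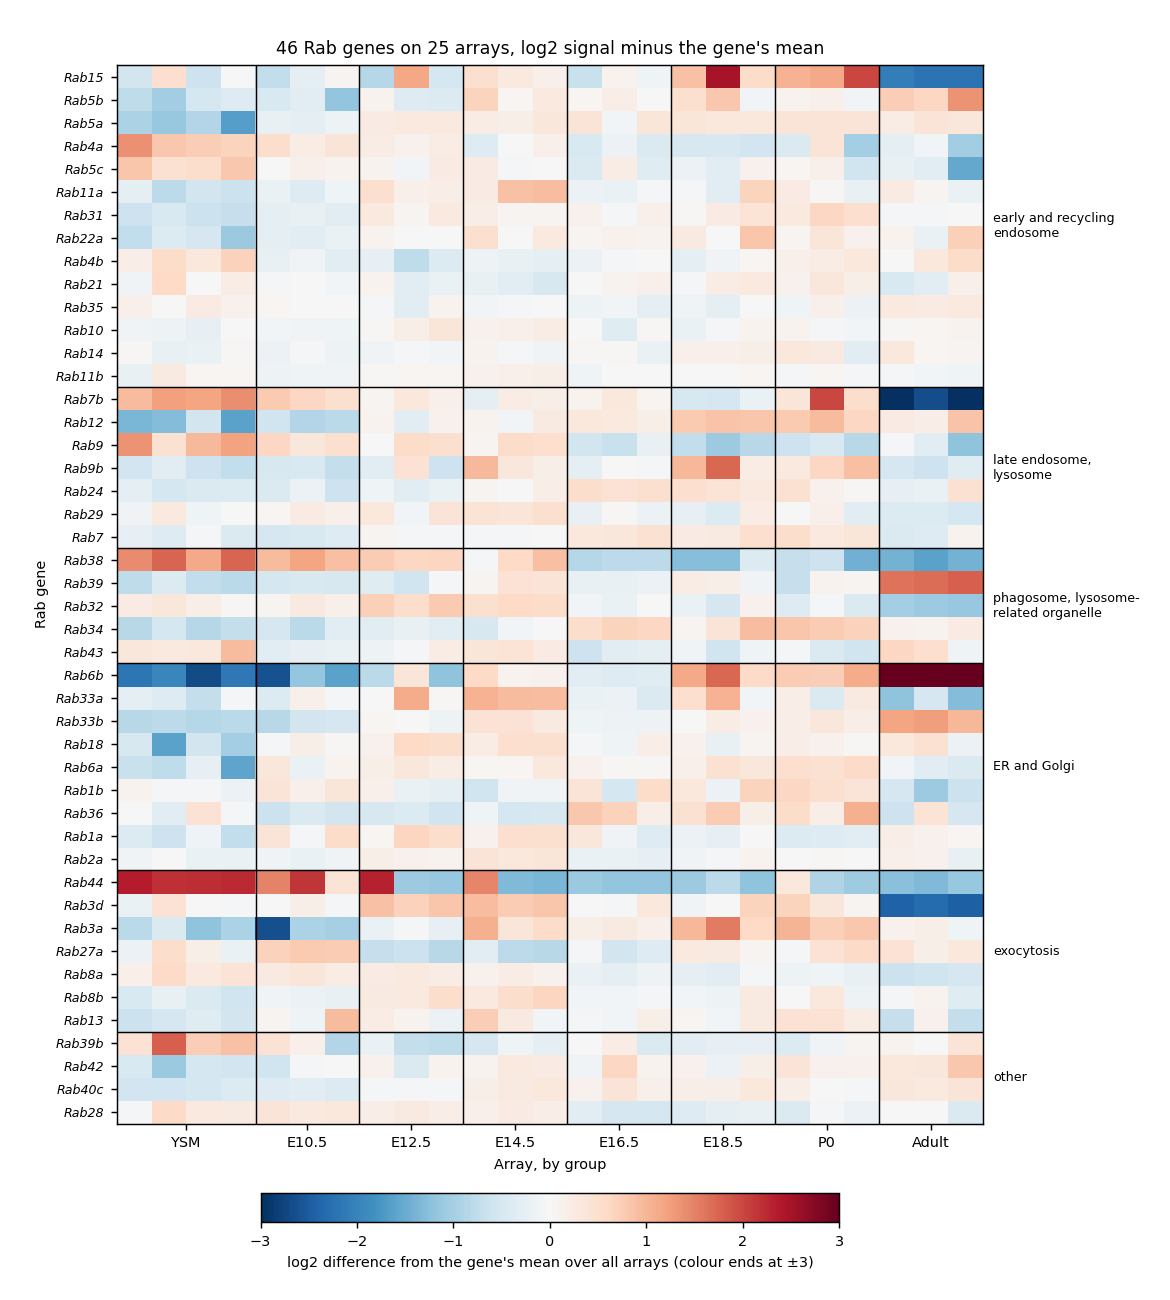
Log2 signal of 46 Rab genes (rows, by role and within a role by the span of their group means) on 25 arrays (columns, by group), as the difference from each gene's mean over all arrays. Adult columns stand apart in Rab6b and Rab39 (high) and in Rab7b, Rab3d and Rab15 (low), while Rab44 is high in YSM and on single arrays of E12.5 and E14.5.

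From YSM to E10.5 microglia 7 members rose, beside 10% of all genes, and 3 fell, beside 9.51%. The largest rise was that of Rab18, a Rab of the ER and of lipid droplets, with 8.98, 7.87, 8.91 and 8.45 in YSM and 9.44, 9.65 and 9.50 at E10.5 (0.98 ± 0.21, adjusted p = 0.00309). The groups did not overlap, and YSM replicate 2 was the lowest array. Later Rab18 read 9.60, 10.07 and 9.999 at E12.5, 9.69, 9.96 and 9.94 at E14.5, 9.41, 9.33 and 9.66 at E16.5, 9.60, 9.25 and 9.55 at E18.5, 9.67, 9.60 and 9.51 at P0, and 9.78, 9.92 and 9.29 in the adult, with no later step called. Rab5a, the early endosome fusion Rab, rose by 0.93 ± 0.14, Rab6a of the Golgi by 0.90 ± 0.20 and Rab1a of ER-to-Golgi transport by 0.77 ± 0.18. Rab27a rose by 0.66 ± 0.18 and Rab31 by 0.33 ± 0.10. Rab13, of junctional and surface delivery, lay below background on all 4 YSM arrays and was at least 1.22-fold higher at E10.5. The largest fall was that of Rab39b, from 6.50, 7.86, 6.81 and 6.94 in YSM to 6.50, 6.23 and 5.19 (fell by 1.06 ± 0.29, adjusted p = 0.014), and these groups touched at 6.50. It then read 5.86, 5.36 and 5.31 at E12.5, 5.58, 5.94 and 5.78 at E14.5, 6.06, 6.29 and 5.64 at E16.5, 5.76, 5.83 and 5.83 at E18.5, 5.66, 5.97 and 6.16 at P0, and 6.18, 6.08 and 6.45 in the adult, with no further call. Rab43 fell by 0.73 ± 0.19 and Rab4b, a recycling Rab, by 0.64 ± 0.14. Without 1 array the calls of Rab27a (YSM replicate 4), of Rab13 and Rab39b (E10.5 replicate 3) and of Rab31 (any 1 of 6 arrays) were lost. Scaling to the 75th percentile ended the calls of Rab13, Rab31 and Rab39b. The mean of all kept probes ended those of Rab6a and Rab43, and Rab43 then differed by -0.32 (adjusted p = 0.189). The mean of 9 epithelial and endodermal markers was 5.80 to 10.65 on YSM arrays and 5.01 to 6.65 on all others, that of the erythroid markers was 7.86 to 11.26 in YSM and 8.14 to 9.66 at E10.5, and their part in these differences was not tested.

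From E10.5 to E12.5, 12 members rose, beside 14.46% of all genes, and 1 fell, beside 16.2%. The median change of the 46 members was 0.18, and that of all genes was -0.01. When arrays were scaled to their 75th percentile instead of quantile-normalized, the median of all genes moved to -0.18 and that of the Rab genes to 0.02, so that 4 rose and 2 fell. The distance between both medians was 0.19 under the first scaling and 0.21 under the second. The fall was that of Rab27a, which docks secretory lysosomes and granules at the plasma membrane. Its values were 11.08, 11.79, 11.44 and 11.07 in YSM, 11.96, 12.04 and 12.03 at E10.5 and 10.57, 10.62 and 10.43 at E12.5. Every E12.5 array lay below every E10.5 array (fell by 1.47 ± 0.19, adjusted p = 1.49e-05). Rab27a then read 10.96, 10.47 and 10.42 at E14.5, 11.24, 10.71 and 10.88 at E16.5, 11.55, 11.54 and 11.35 at E18.5, 11.21, 11.69 and 11.84 at P0, and 11.70, 11.44 and 11.57 in the adult, with no single later step called. Among the members that rose were Rab33b (0.59 ± 0.10), Rab3d (0.76 ± 0.18), Rab32 (0.50 ± 0.14), Rab31 (0.49 ± 0.11), Rab5a (0.50 ± 0.15), Rab7 (0.44 ± 0.13) and Rab8b (0.53 ± 0.15). Leaving out E12.5 replicate 3 ended the call of Rab8b, E10.5 replicate 2 that of Rab5a, and E10.5 replicate 1 or E12.5 replicate 1 that of Rab7. Of the 12 members that rose, Rab3a, Rab6b, Rab12 and Rab33b kept their call under 75th percentile scaling. There Rab3d differed by 0.54 (adjusted p = 0.0606) and Rab32, Rab31, Rab5a, Rab7 and Rab8b by 0.11, 0.13, 0.22, 0.08 and 0.16.

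From E12.5 to E14.5 no Rab gene was called by limma, beside 0.875% of all genes called higher and 0.508% called lower. An unadjusted p under 0.05 was found for 8 of 46 Rab genes, beside 1636 of all 10630 genes. From E14.5 to E16.5, 3 members rose, beside 12.9% of all genes, and 14 fell, beside 20%. The median Rab change was -0.27, that of all genes -0.08, and 75th percentile scaling moved them to -0.48 and -0.29, with 1 member higher and 20 lower. All 5 phagosomal and lysosome-related members changed at this step. Rab38 fell below background, Rab43 fell by 0.76 ± 0.20, Rab32 fell by 0.63 ± 0.14 and Rab39 fell by 0.51 ± 0.18, while Rab34 rose by 0.79 ± 0.17. The remaining falls were spread over the secretory members Rab33a, Rab2a, Rab33b, Rab3d, Rab8a and Rab8b, the endosomal Rab9, Rab11a and Rab29, and Rab28. The calls of Rab39, Rab7, Rab9 and Rab29 were lost without any 1 of 5, 4, 3 and 2 arrays. The mean of the erythroid markers was 7.46 to 7.93 at E14.5 and 6.36 to 6.62 at E16.5. The brightness of the arrays changed at the same step, with a 75th percentile of signal over background of 1.70 to 2.02 at E14.5 and 2.76 to 3.10 at E16.5. The part of either in the result was not tested.

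From E16.5 to E18.5 Rab6b rose (1.50 ± 0.36, adjusted p = 0.0335) and no other member was called, beside 1.37% of all genes called higher and 0.95% called lower. The call was lost without any 1 of the 3 E16.5 arrays or without E18.5 replicate 1 or 2, under 75th percentile scaling and with no filter on dim probes, and the count was 3 members without E12.5 replicate 2. From E18.5 to P0 no member was called by limma, beside 0.047% and 0.00941% of all genes. An unadjusted p under 0.05 was found for 3 of 46 members, beside 568 of all 10630 genes. Without P0 replicate 1 the count at this step was 1, namely Rab7b.

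From P0 to adulthood 8 members rose, beside 24.2% of all genes, and 16 fell, beside 26.9%. The median change of the Rab genes was -0.13 against -0.03 for all genes, and it was 0.01 against 0.11 after 75th percentile scaling, where 8 rose and 11 fell. By role, 2 of 21 endosomal members rose and 6 fell, 2 of 5 phagosomal members rose and 2 fell, 3 of 16 secretory members rose and 8 fell, and 1 of 4 others rose. The mean of the platelet and megakaryocyte markers was 7.44 to 8.76 at P0 and 6.40 to 6.82 in the adult, and its part was not tested. Adult microglia against E10.5 microglia, the comparison over the whole course in the brain, had 13 members higher, beside 30.6% of all genes, and 15 lower, beside 35.6%. Here the median Rab change was 0.14 against -0.09 for all genes, and 75th percentile scaling turned it to -0.38, equal to the -0.38 of all genes, with 8 members higher and 23 lower. Both comparisons use the same adult arrays, so their values stand side by side below and neither supports the other.

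**Figure D2:**
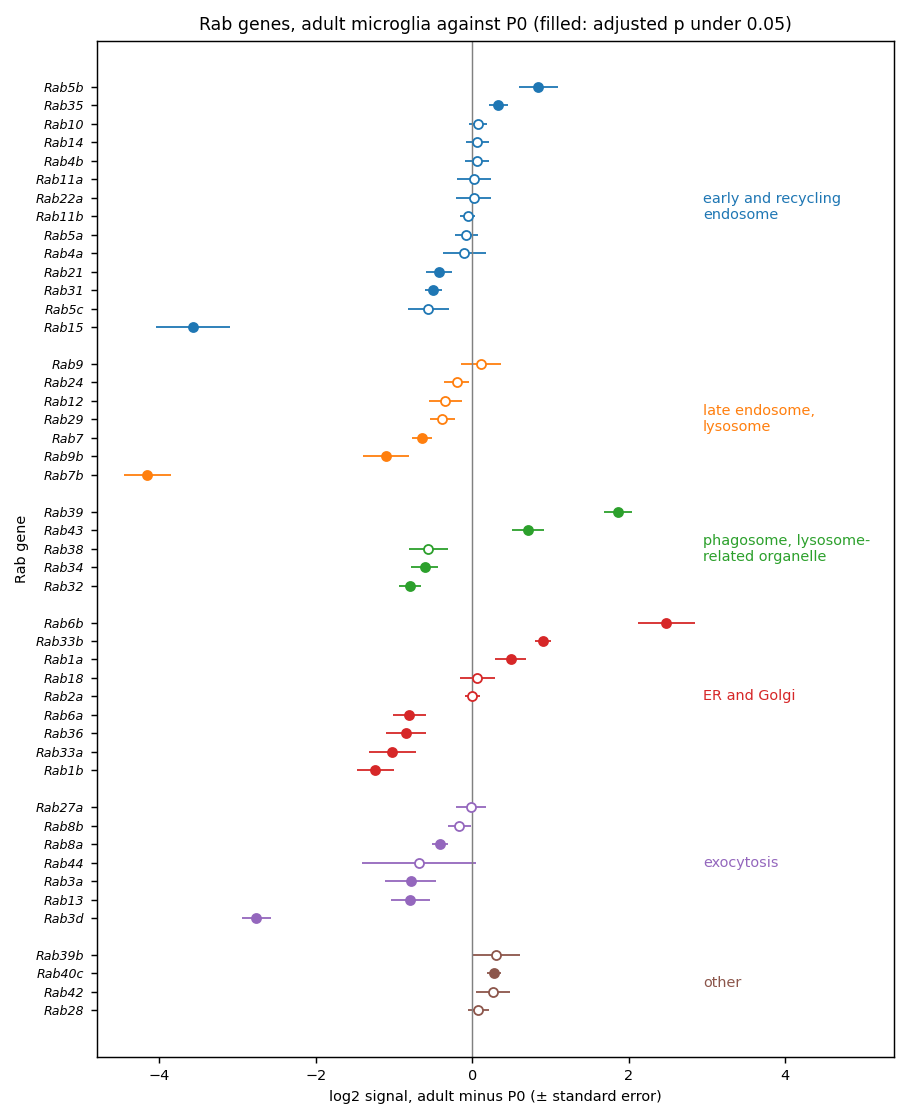
Log2 signal of each Rab gene in adult microglia minus P0 (x axis, ± standard error, 3 arrays a group), by role, with filled points for an adjusted p under 0.05. Rab6b (2.48) and Rab39 (1.86) lie farthest to the right, and Rab7b (-4.15) and Rab3d (-2.76) lie far to the left. Rab15, also to the left, was below background in the adult, so that its plotted difference is no measured fold.

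Rab6b had the widest span of all members. It is the relative of Rab6a that is enriched in neurons, where it serves Golgi and retrograde transport. It read 5.62, 5.83, 5.09 and 5.63 in YSM, all below background, 5.17, 6.61 and 6.18 at E10.5, 6.96, 8.14 and 6.58 at E12.5, and 8.39, 7.89 and 7.90 at E14.5. It then read 7.47, 7.40 and 7.42 at E16.5, 8.92, 9.50 and 8.35 at E18.5, 8.55, 8.51 and 8.90 at P0, and 11.27, 11.31 and 10.83 in adult microglia. The adult arrays stood above every other array, 2.48 ± 0.36 over P0 (5.59-fold, adjusted p = 1.03e-05) and 5.15 ± 0.36 over E10.5 (adjusted p = 9.7e-11). The probe was detected on 19 of 25 arrays, and its lowest value outside YSM was 5.17, at E10.5. The E10.5 baseline of the larger difference thus lay in part close to background. Up to P0 Rab6b was highest within its stage on the arrays that had the highest neuronal marker mean at E12.5 (replicate 2, 8.17), E18.5 (replicate 2, 9.51), E14.5 (replicate 1, 8.82) and P0 (replicate 3, 8.68), but not at E10.5 or E16.5. In adult microglia, where it was highest, the neuronal mean was 5.21 to 5.32. The E12.5 step (1.24 ± 0.36) was lost without E10.5 replicate 1 or E12.5 replicate 2.

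Rab39, a Rab of phagosome acidification and lysosomal fusion, was highest in the adult. Its values were 7.82, 8.17, 7.83 and 7.76 in YSM, 8.04, 8.12 and 8.10 at E10.5, 8.21, 7.98 and 8.54 at E12.5, and 8.66, 8.999 and 8.97 at E14.5. They were 8.34, 8.35 and 8.39 at E16.5, 8.79, 8.75 and 8.47 at E18.5, 7.88, 8.68 and 8.66 at P0, and 10.21, 10.24 and 10.36 in adult microglia. No earlier array reached the adult ones, and the rise from P0 was 1.86 ± 0.18 (3.63-fold, adjusted p = 4.67e-08).

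Rab33b, a Golgi Rab that binds the autophagy protein Atg16L1, followed with steps of smaller size and little spread. It lay between 8.12 and 8.20 in YSM, between 8.16 and 8.48 at E10.5 and between 8.83 and 9.04 at E12.5. From 9.25 to 9.42 at E14.5 it fell to 8.82 to 8.85 at E16.5 (fell by 0.53, adjusted p = 0.00117). It lay between 8.98 and 9.22 at E18.5, between 9.17 and 9.33 at P0 and at 10.17, 10.25 and 9.99 in the adult (0.91 ± 0.10 over P0, adjusted p = 5.63e-07, and 1.78 ± 0.10 over E10.5). Rab5b, 1 of 3 Rab5 genes, rose from 9.09, 9.15 and 8.91 at P0 to 9.73, 9.62 and 10.34 (0.85 ± 0.25, adjusted p = 0.00862), a call lost without adult replicate 3. Rab1a, Rab35, Rab40c and Rab43 rose by 0.28 to 0.71, and the call of Rab40c was lost without P0 replicate 2 or 3.

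**Figure D3:**
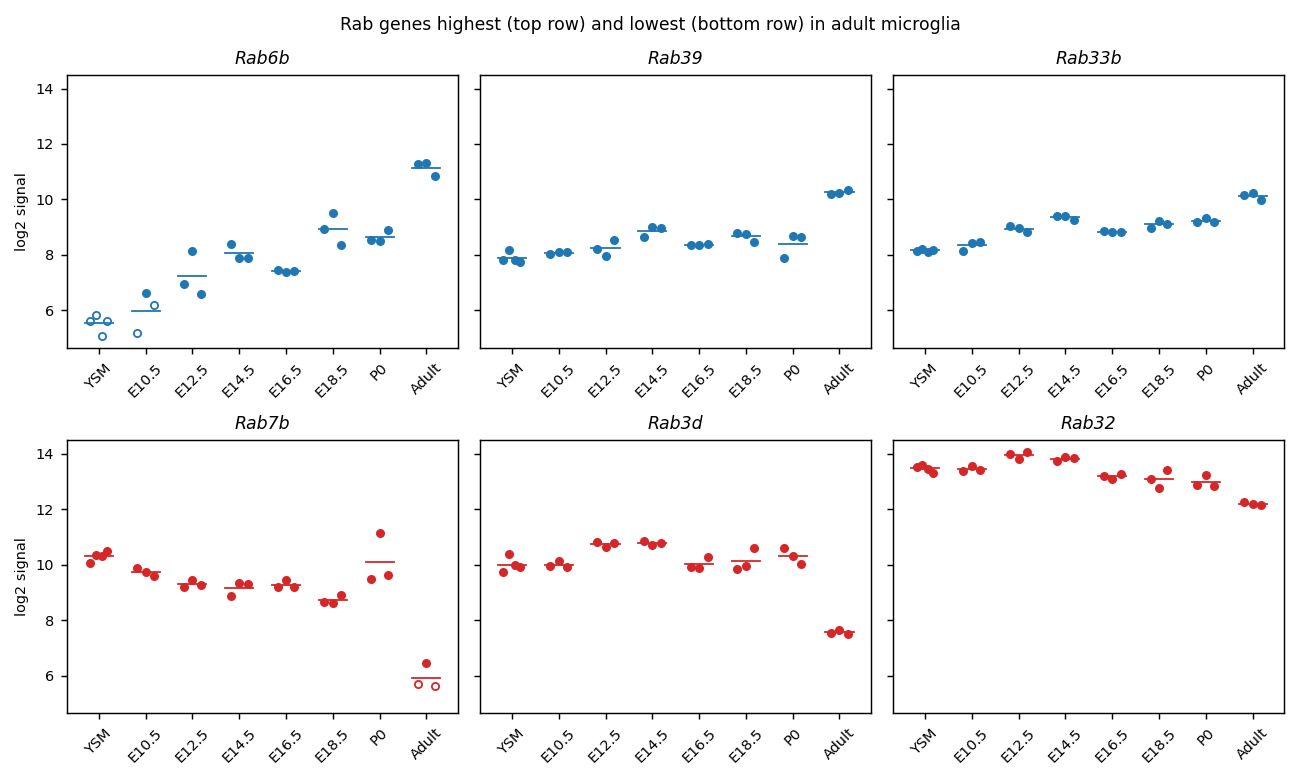
Log2 signal of 6 Rab genes on each array (points, open where the probe lay below background) with group means (lines), by stage. Rab6b, Rab39 and Rab33b in the top row have their highest 3 arrays in the adult, and Rab7b, Rab3d and Rab32 in the bottom row their lowest.

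Rab7b fell farthest. It acts between late endosomes and the trans-Golgi and in macrophage lines promotes the degradation of Toll-like receptors. It read 10.07, 10.35, 10.31 and 10.504 in YSM, 9.90, 9.74 and 9.61 at E10.5, 9.19, 9.44 and 9.27 at E12.5, 8.86, 9.34 and 9.30 at E14.5, and 9.21, 9.43 and 9.21 at E16.5. It read 8.64, 8.62 and 8.92 at E18.5, 9.48, 11.13 and 9.63 at P0, and 5.70, 6.46 and 5.62 in the adult, where 1 of 3 arrays detected it. The adult arrays lay below all others. From P0 it fell by 4.15 ± 0.30 (adjusted p = 4.69e-10), and its second kept probe fell by 3.20 (adjusted p = 1.71e-09 in the fit of all kept probes).

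Rab3d, a Rab of secretory granules, was at 9.75, 10.38, 9.97 and 9.92 in YSM, 9.95, 10.14 and 9.92 at E10.5, 10.84, 10.65 and 10.78 at E12.5, and 10.87, 10.70 and 10.79 at E14.5. It was at 9.93, 9.89 and 10.27 at E16.5, 9.85, 9.95 and 10.61 at E18.5, 10.62, 10.30 and 10.04 at P0, and 7.52, 7.65 and 7.51 in the adult. Thus it went up at E12.5 (0.76 ± 0.18), down at E16.5 (it fell by 0.76 ± 0.18) and fell by 2.76 ± 0.18 from P0 to the adult (6.77-fold, adjusted p = 1.66e-10), with no overlap at any of these 3 steps. Rab32, which with Rab38 builds melanosomes and other lysosome-related organelles and acts on phagosomes, took the same course on a smaller scale, 13.98, 13.81 and 14.06 at E12.5, 12.89, 13.24 and 12.85 at P0 and 12.25, 12.19 and 12.15 in the adult (fell by 0.80 ± 0.14 from P0, adjusted p = 7.12e-05).

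Promoters of 5 members are shown, picked by hand among members with a single promoter sequence available. They changed between stages, and Rab5a carries a motif of the endolysosomal gene program. They are not the members with the widest spans, since Rab12 (2.04), with a single sequence too, exceeded Rab33b (1.97). RefSeq windows of GRCm38.p6, from 250 bases before to 50 after the annotated start, were found for 39 of the 46 members, Rab7b, Rab38 and Rab44 not among them. They are written 5′ to 3′ on the gene's strand: Rab6b (chr9:103111824-103112123, + strand), Rab39 (chr9:53706183-53706482, - strand) and Rab33b (chr3:51483716-51484015, + strand), high in the adult, Rab3d (chr9:21918134-21918433, - strand), low in the adult, and Rab5a (chr17:53478984-53479283, + strand). Capitals mark any match on either strand of 5 motifs. These were the GC box GGGCGG, the promoter element known as the CCAAT box, the core GAGGAA that is bound by ETS factors such as PU.1, the E-box CACGTG that is bound by TFEB and its relatives, and the element TGANTCA that is bound by AP-1, and no matches overlapped in these windows.
Rab6b: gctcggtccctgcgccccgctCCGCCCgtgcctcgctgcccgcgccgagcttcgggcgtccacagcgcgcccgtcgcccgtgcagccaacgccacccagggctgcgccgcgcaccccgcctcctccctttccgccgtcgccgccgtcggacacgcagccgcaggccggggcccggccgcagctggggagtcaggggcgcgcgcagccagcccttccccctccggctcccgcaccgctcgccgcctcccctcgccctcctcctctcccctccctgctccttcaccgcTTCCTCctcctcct
Rab39: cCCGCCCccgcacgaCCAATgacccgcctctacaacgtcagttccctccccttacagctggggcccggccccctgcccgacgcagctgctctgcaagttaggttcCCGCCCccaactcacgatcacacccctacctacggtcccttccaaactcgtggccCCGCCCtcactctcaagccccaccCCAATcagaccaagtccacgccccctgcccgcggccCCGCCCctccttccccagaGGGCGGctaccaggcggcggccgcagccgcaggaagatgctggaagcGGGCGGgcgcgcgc
Rab33b: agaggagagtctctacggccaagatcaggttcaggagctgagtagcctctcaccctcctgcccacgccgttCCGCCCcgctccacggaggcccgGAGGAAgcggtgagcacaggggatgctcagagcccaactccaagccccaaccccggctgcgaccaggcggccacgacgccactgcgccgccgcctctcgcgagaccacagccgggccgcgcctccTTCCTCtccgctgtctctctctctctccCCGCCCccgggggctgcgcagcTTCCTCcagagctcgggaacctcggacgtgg
Rab3d: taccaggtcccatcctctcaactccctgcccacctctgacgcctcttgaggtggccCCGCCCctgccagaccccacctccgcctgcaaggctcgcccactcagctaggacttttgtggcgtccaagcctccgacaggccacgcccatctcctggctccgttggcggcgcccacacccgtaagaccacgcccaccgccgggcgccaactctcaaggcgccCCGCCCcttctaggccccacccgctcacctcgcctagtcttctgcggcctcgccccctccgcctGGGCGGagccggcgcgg
Rab5a: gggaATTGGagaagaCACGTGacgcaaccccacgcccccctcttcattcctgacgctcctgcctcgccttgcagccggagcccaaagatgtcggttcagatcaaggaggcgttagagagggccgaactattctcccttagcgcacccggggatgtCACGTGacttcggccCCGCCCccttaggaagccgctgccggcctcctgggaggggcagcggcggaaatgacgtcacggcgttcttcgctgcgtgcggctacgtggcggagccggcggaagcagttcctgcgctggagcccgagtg
The GC box was found 6 times in Rab39, 3 times in Rab3d, 2 times in Rab33b and 1 time each in Rab6b and Rab5a. The 39 members had 50 windows, since some have several annotated starts. The GC box was present in 34 of these 50 (68%), against 35.7% of 32851 windows of all genes. CCAAT was present in 23 of 50 (46%), against 37.4%. GAGGAA, found 3 times in Rab33b and 1 time in Rab6b, was present in 9 of 50 (18%), against 28.3%. CACGTG, found 2 times in Rab5a, was present in 4 of 50 (8%; Rab5a, Rab21, Rab24 and Rab27a), against 7.15%, and TGANTCA in 3 of 50 (6%), against 7.81%. The Rab windows belong to genes that passed the detection filter, while the windows of all genes were not filtered. Windows of other detected genes were not compared. A match is a match of letters and does not show binding.

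Among the 14 early and recycling members, Rab15 had the widest span. It controls early endosomal traffic and is best known from neurons. It read 6.34, 7.39, 6.27 and 6.89 in YSM, 6.15, 6.63 and 6.97 at E10.5, 6.04, 8.06 and 6.37 at E12.5, and 7.38, 7.18 and 7.03 at E14.5. It read 6.22, 7.003 and 6.76 at E16.5, 7.77, 9.35 and 7.45 at E18.5, 7.94, 8.04 and 8.91 at P0, and 4.82, 4.67 and 4.67 in the adult, below background on all 3 arrays, at least 4.44-fold lower than P0 (adjusted p = 3.14e-06). The single high arrays of E12.5, E18.5 and P0 were those with the highest neuronal marker mean of their stage. Of the other early members, from P0 to the adult Rab31 fell by 0.50 ± 0.11 and Rab21 fell by 0.42 ± 0.17 (a call lost without any 1 of 9 arrays), both lost under 75th percentile scaling, and Rab35 rose by 0.34 ± 0.12 (lost without any 1 of 3). Rab4a drifted down from 9.21, 8.63, 8.56 and 8.50 in YSM to 7.56, 7.76 and 6.78 in the adult (it fell by 0.84 ± 0.27 from E10.5, adjusted p = 0.0103).

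Among the 7 late endosomal members, Rab12, which sends recycling receptors to lysosomes, had a higher mean at each stage up to E18.5. It read 7.14, 7.21, 7.95 and 6.91 in YSM, 7.91, 7.63 and 7.71 at E10.5, 8.61, 8.19 and 8.64 at E12.5, 8.62, 8.42 and 8.78 at E14.5, 8.83, 8.81 and 8.70 at E16.5, 9.30, 9.38 and 9.35 at E18.5, 9.30, 9.47 and 9.13 at P0, and 8.77, 8.72 and 9.38 in the adult. The single called step was E10.5 to E12.5 (0.73 ± 0.21, adjusted p = 0.0125), a call lost without E12.5 replicate 3, and the adult stood 1.20 ± 0.21 over E10.5. Rab9, of retrieval from late endosomes to the Golgi, took the opposite course, from 8.83 to 9.73 in YSM to 7.28 to 7.63 at E18.5, with a called drop at E16.5 (fell by 0.85 ± 0.25, adjusted p = 0.0151). Rab7, the Rab of lysosomal fusion, rose at E12.5 on 2 of its 3 probes and at E16.5 (0.41 ± 0.13) on 1, and fell by 0.64 ± 0.13 in the adult on all 3, with 13.02, 12.79 and 12.88 at P0 and 12.06, 12.11 and 12.60 in the adult. Its E16.5 change was 0.028 (adjusted p = 0.943) for the mean of its probes and 0.017 (adjusted p = 0.939) under 75th percentile scaling. Rab9b was detected on 5 arrays at E14.5, E18.5 and P0 and on none in the adult (adjusted p = 0.00413), too dim for a bound on its fold, and the call was lost under 75th percentile scaling. At each stage from E12.5 to P0 Rab9b read highest on the array with the highest neuronal marker mean, and the part of neuronal RNA was not tested.

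Of the 5 phagosomal members, Rab38 fell below background at E16.5. It read 7.66, 7.97, 7.37 and 7.98 in YSM, 7.18, 7.42 and 7.14 at E10.5, 6.99, 6.87 and 6.87 at E12.5, and 6.20, 6.83 and 7.15 at E14.5, detected on all 13 arrays. It read 5.38, 5.44 and 5.46 at E16.5, 4.96, 4.96 and 5.82 at E18.5, 5.54, 5.61 and 4.80 at P0, and 4.81, 4.64 and 4.82 in the adult, detected on 1 of these 12. It was at least 1.84-fold lower at E16.5 than at E14.5 (adjusted p = 0.000833) and at least 2.14-fold lower in the adult than at E10.5. Rab34, which moves lysosomes towards the nucleus and acts in phagosome maturation, rose from 7.62, 8.01 and 8.12 at E14.5 to 8.63, 8.78 and 8.72 at E16.5 and fell by 0.61 ± 0.17 from P0 to the adult. This holds for 1 of its 3 probes, and the other 2 were not called at either step.

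Among the ER and Golgi members, Rab33a is a relative of Rab33b known from neurons and lymphocytes. It read 6.08, 5.95, 5.63 and 6.28 in YSM, 5.93, 6.50 and 6.28 at E10.5, 6.34, 7.45 and 6.38 at E12.5, 7.38, 7.30 and 7.27 at E14.5, 6.14, 6.16 and 5.92 at E16.5, 6.85, 7.38 and 6.27 at E18.5, 6.55, 5.90 and 6.61 at P0, and 5.13, 5.84 and 5.03 in the adult. It fell by 1.25 ± 0.30 at E16.5 (adjusted p = 0.0041). It lay below background in the adult, at least 1.16-fold lower than P0 (adjusted p = 0.00764). At each stage from E12.5 to P0 Rab33a was highest on the array with the highest neuronal marker mean. This was not so in YSM, at E10.5 or in the adult, and the part of neuronal RNA was not tested. Rab36, a Golgi Rab that positions late endosomes, was detected on 5 arrays in all. It read 5.26, 4.92, 5.68 and 5.21 in YSM, 4.61, 4.82 and 4.71 at E10.5, 4.77, 4.83 and 4.65 at E12.5, and 5.12, 4.72 and 4.78 at E14.5, all below background. It read 6.06, 5.95 and 5.46 at E16.5, 5.72, 6.01 and 5.43 at E18.5, 5.81, 5.45 and 6.32 at P0, and 4.63, 5.66 and 4.74 in the adult. The difference between E14.5 and E16.5 (adjusted p = 0.00827) was lost under 75th percentile scaling. Rab1b of ER-to-Golgi transport fell from 8.02, 7.90 and 7.78 at P0 to 6.90, 6.33 and 6.76 in the adult (fell by 1.24 ± 0.24, adjusted p = 0.000229), while Rab1a rose by 0.49 ± 0.20, a call lost when any 1 array of P0 or the adult was left out. Both genes were called on 1 of their 2 kept probes each.

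Among the 7 exocytic members none rose from P0 to the adult, beside 24.2% of all genes, and 4 fell, beside 26.9%. The 4 were Rab3d, Rab13, Rab3a and Rab8a, and the call of Rab13 was lost without adult replicate 1 or 3. Rab3a, the synaptic vesicle Rab, read 6.88, 7.25, 6.49 and 6.74 in YSM, 5.04, 6.73 and 6.68 at E10.5, 7.49, 7.62 and 7.44 at E12.5, and 8.75, 8.03 and 8.22 at E14.5. It read 7.87, 7.96 and 7.83 at E16.5, 8.68, 9.23 and 8.28 at E18.5, 8.71, 8.40 and 8.48 at P0, and 7.81, 7.86 and 7.55 in the adult. It rose at E12.5 (1.37 ± 0.32, adjusted p = 0.00332) on 1 of its 2 probes, by 0.81 without E10.5 replicate 1 and by 0.69 in the authors' normalized values. It fell by 0.79 ± 0.32 in the adult (adjusted p = 0.0489), a call that was lost when any of 18 arrays was left out. It stayed detected on all 3 adult arrays, where the mean of the neuronal markers was 5.21 to 5.32 and 3 of 9 were detected on at least 1 array. In YSM and at each stage from E12.5 to E18.5 Rab3a was highest on the array with the highest neuronal marker mean. This was not so at E10.5, P0 or in the adult, and the part of neuronal RNA was not tested. Rab8a, of delivery from the Golgi to the surface, fell by 0.38 ± 0.10 at E16.5 and fell by 0.41 ± 0.10 in the adult, with a range of 12.83 to 13.27 up to E14.5 and 12.06 to 12.18 in the adult. For the mean of both probes the E16.5 change was -0.046 (adjusted p = 0.805), and the adult change was -0.17 (adjusted p = 0.414) under 75th percentile scaling.

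Rab44, an unusually large Rab with roles in granule secretion of mast cells, marked single arrays. It read 8.26, 8.11, 8.13 and 8.16 in YSM, 7.41, 8.05 and 6.33 at E10.5, 8.21, 4.82 and 4.77 at E12.5, 7.38, 4.59 and 4.55 at E14.5, 4.79, 4.73 and 4.73 at E16.5, 4.82, 5.13 and 4.72 at E18.5, 6.24, 5.00 and 4.84 at P0, and 4.67, 4.60 and 4.77 in the adult. Its only high arrays after E10.5 were E12.5 replicate 1, E14.5 replicate 1 and P0 replicate 1. Mpo, the myeloperoxidase of neutrophil granules and their precursors, read 11.95 on the first of these arrays against 7.98 and 6.09 on the other E12.5 arrays, 11.21 on the second against 4.57 and 4.51, and 7.87 on the third against 5.68 and 4.59. The mean of the 8 early myeloid markers was 8.13, 8.23 and 5.78 on the same 3 arrays, and their part in the Rab44 signal was not tested. The mean of the mast cell markers was 8.47 on E12.5 replicate 1, but also 8.01 on E12.5 replicate 2, where Rab44 read 4.82, and 8.16 on E18.5 replicate 2, where it read 5.13. In the adult Rab44 was at least 2.17-fold lower than at E10.5 (adjusted p = 0.00391). Rab27a read 10.57 on E12.5 replicate 1, rich in Mpo, and 10.62 and 10.43 on the other E12.5 arrays. The part of early myeloid cells in its fall at E12.5 was not tested.

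**Figure D4:**
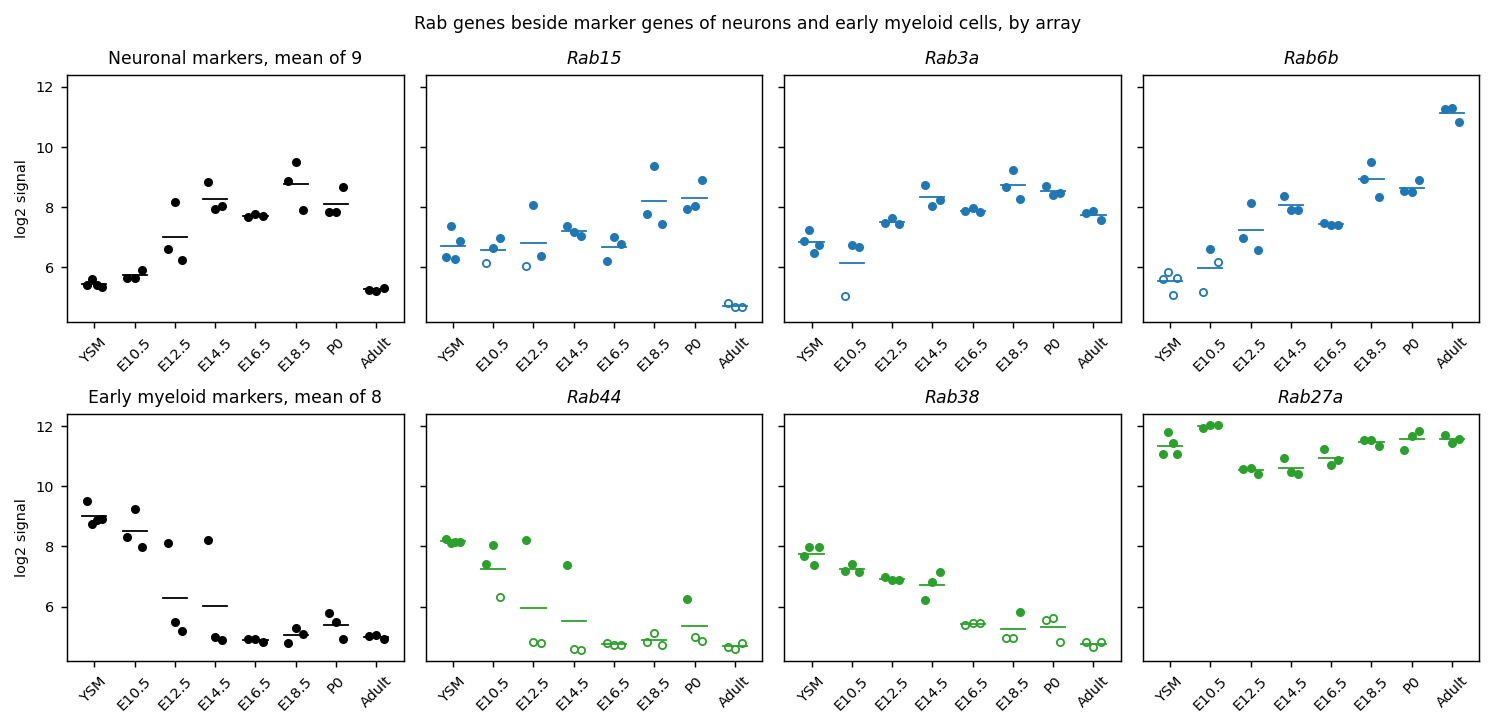
Log2 signal by array and group (points, open where below background, with group means as lines) of the mean of 9 neuronal markers beside Rab15, Rab3a and Rab6b (top), and of the mean of 8 early myeloid markers beside Rab44, Rab38 and Rab27a (bottom). E12.5 replicate 1 (8.13) and E14.5 replicate 1 (8.23) stand out in the myeloid markers and in Rab44 (8.21 and 7.38), while Rab6b is highest in the adult, where the neuronal mean is 5.21 to 5.32.

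Close relatives took different courses. Between E10.5 and the adult Rab5b rose by 1.57 ± 0.25 and Rab5a by 0.54 ± 0.15, and Rab5c fell by 0.78 ± 0.27. Rab7b fell by 3.82 ± 0.30, and Rab7 differed by 0.20 ± 0.13 (adjusted p = 0.183). Rab4b rose by 0.49 ± 0.15 where Rab4a fell. Rab33b rose by 1.78 ± 0.10 where Rab33a, below background in the adult, was at least 1.07-fold lower, Rab3a rose by 1.59 ± 0.32 where Rab3d fell by 2.44 ± 0.18, and Rab8a fell by 0.87 ± 0.10 where Rab8b differed by 0.06 ± 0.15 (adjusted p = 0.725). Rab32 and Rab38 both fell. Differences between the changes of relatives were not tested. The falls of Rab4a, Rab5c and Rab33a and the rise of Rab4b were lost without adult replicate 3, the fall of Rab33a also without E10.5 replicate 2, and the rises of Rab4b and Rab5a under 75th percentile scaling. The rise of Rab3a kept its call without each array in turn, but was then 1.04 at the lowest.

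**Figure D5:**
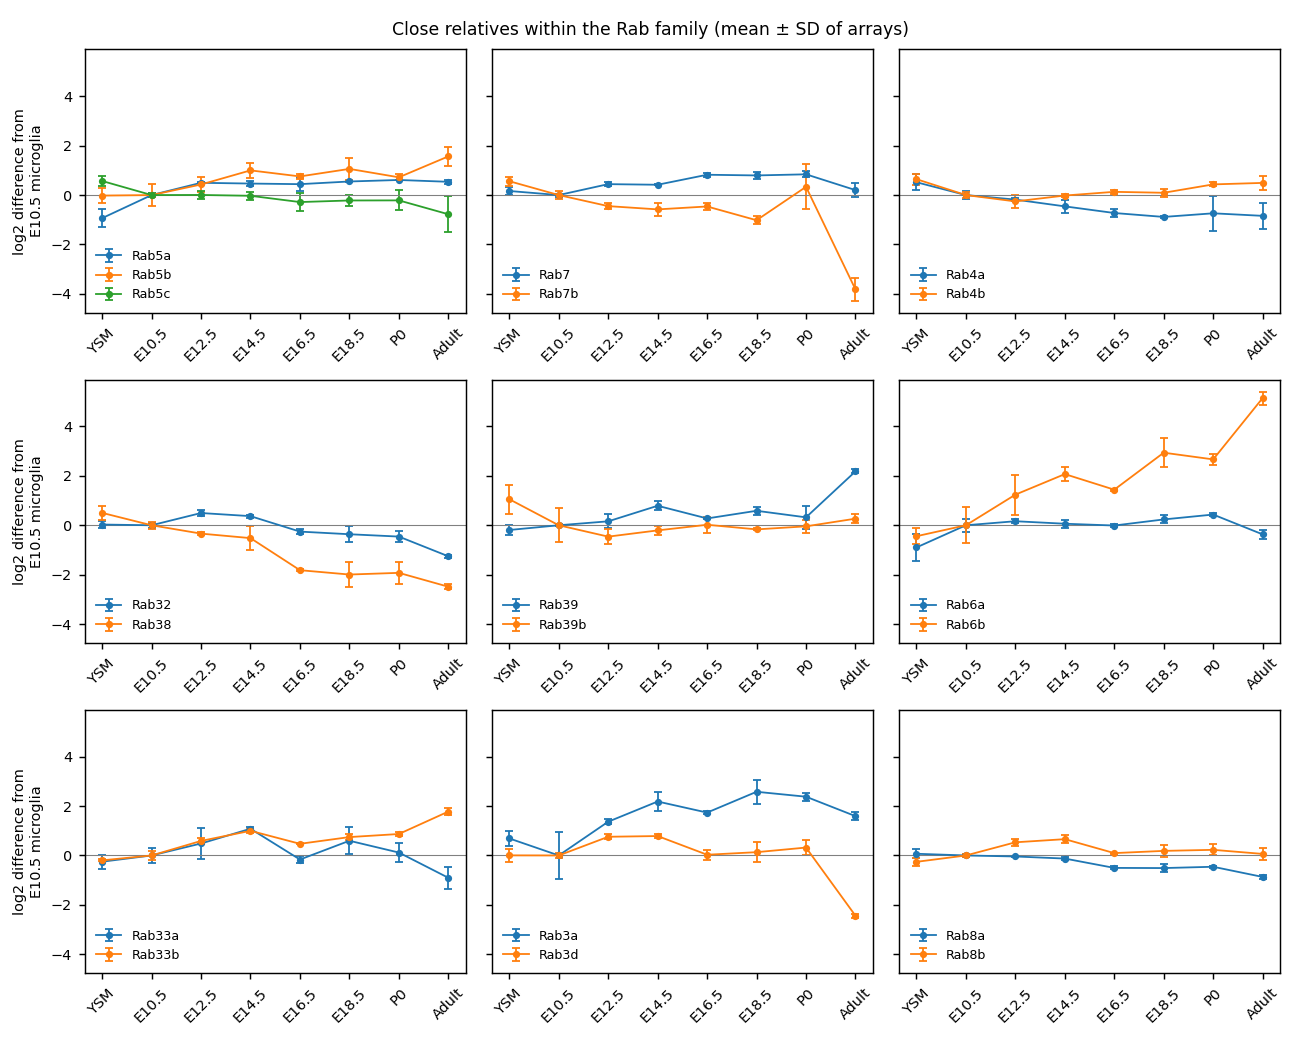
Log2 difference from the mean of E10.5 microglia (y axis) by group for close relatives in the Rab family, as means with the SD of 3 arrays (4 in YSM) as bars. In the adult Rab7b lies at -3.82 beside Rab7 at 0.20, Rab3d at -2.44 beside Rab3a at 1.59, and Rab6b at 5.15 above Rab6a at -0.37. E10.5 replicate 1 read low for Rab6b (5.17) and Rab3a (5.04), which lowers the baseline of both.

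Several members were called on only some of their probes, which can read different transcript ends. Rab6a had 4 kept probes, of which 2 were higher and 1 lower at E10.5 against YSM, and 1 higher and 1 lower in the adult against P0. Averaged over its probes, the adult change of Rab6a turned from -0.80 to 0.14 (adjusted p = 0.444). Rab5a had 2 probes higher and 1 lower at E10.5 against YSM. For Rab14, whose brightest probe did not change, both dimmer probes rose from E10.5 to the adult. In the same comparison 1 of 2 kept probes of Rab10 was called lower. For Rab7 both dimmer probes rose from YSM to E10.5, where the brightest was not called. Rab7b, Rab8a, Rab3a, Rab24, Rab42 and Rab43 had every kept probe called the same way in the adult against E10.5.

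The proteins that regulate Rabs were followed from lists of exchange factors (24 measured of 29), GTPase-activating proteins (31 of 33), effectors (36 of 48) and escort, prenylation and GDI genes (6 of 8). From P0 to the adult 13 of 24 exchange factors rose and none fell, with the same counts under 75th percentile scaling. Their median change was 0.36, against -0.03 for all genes, of which 24.2% rose and 26.9% fell. Rab3ip, the Rab8 exchange factor also called Rabin8, lay below background at P0 (mean 5.37) and at 8.44 in the adult, at least 6.23-fold higher (adjusted p = 1.58e-10). Hps4, a subunit of the exchange factor for Rab32 and Rab38, rose by 1.21 ± 0.17 at E16.5 and by 1.49 ± 0.17 in the adult (adjusted p = 3.43e-07), the steps at which Rab32 fell. Dennd1c, an exchange factor for Rab35, rose by 1.42 ± 0.19, and Dennd3, which acts on Rab12, by 1.68 ± 0.45.

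Of the 31 GTPase-activating proteins 9 rose and 8 fell from P0 to the adult, near the shares over all genes, and 9 rose and 4 fell under 75th percentile scaling. Tbc1d10a, which acts on Rab27a and Rab35, rose by 2.27 ± 0.25 at E16.5 (adjusted p = 1.82e-05). Tbc1d2, also called Armus, which inactivates Rab7, fell by 1.75 ± 0.27 at E12.5 and was at least 6.92-fold lower in the adult than at E10.5. Of 36 effectors, 10 rose and 8 fell from P0 to the adult, also near those shares, and 12 rose and 7 fell under that scaling. Anxa2, listed for its part in Rab-dependent exocytosis, fell by 4.17 ± 0.35 (adjusted p = 6.27e-09), and Rilpl2, which binds phosphorylated Rab8 and Rab10, by 1.83 ± 0.27, while its relative Rilpl1 rose by 1.24 ± 0.14. Mlph and Unc13d, which act with Rab27a in melanosome transport and granule priming, rose, Mlph from below background by at least 3.23-fold and Unc13d by 1.61 ± 0.23. Eea1, the tether of early endosomes that binds Rab5, fell by 0.82 ± 0.25. Of the 6 escort and prenylation genes 1 rose. The largest called change of these genes between neighbouring groups was that of Gdi2, 1.62 ± 0.31 higher at E10.5 than in YSM (adjusted p = 0.00158).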

How the data were processed

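Probe signals of 28 columns were extracted by the authors with GenomeStudio and deposited as linear intensity values without background subtraction, each beside a detection p-value that the authors deposited and that sets the probe against negative control beads. The authors also deposited quantile-normalized intensity values (lumi), used here as an alternative and for the fit with a replicate block. The sources used here give no version of either tool. Raw columns were assigned to groups by name, and 0 stayed unmapped.

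Signals were corrected with the normal-exponential model of limma 3.58.1 (neqc, R 4.3.3), its background inferred from detection p-values, with offset 16, quantile normalization and log2. Of 45281 probes, 34885 had 1 gene symbol in the platform annotation, 18 had several and 10378 none. The filter of 3 arrays with a detection p below 0.01 kept 19789 probes, and each gene was represented by its brightest kept probe. A linear model with a mean for each of 8 groups (25 arrays, 17 residual degrees of freedom) gave a moderated F test and 8 comparisons over 10630 genes, with a false discovery rate of 0.05. The median standard error of a change lay between 0.188 and 0.202, and the number of arrays limits the precision. The fit was tested on simulated data. When a probe was not detected on any array of a group, the fold is a lower bound against the higher, per array, of the probe's own value and the lowest detected value.

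Members, roles, partner and marker lists were chosen with earlier results of these data known. Values on every array are given for the 10 members with the widest span of group means, for the largest rise and fall called in each comparison, and for some chosen after their values were seen. Alternatives were no background correction, an offset of 50, 75th percentile scaling, the authors' normalized values, no filter or a stricter one, the mean of all kept probes, a trended robust variance, an unmoderated one-way F test, all 6 adult columns, a replicate block and leaving out each array. The partner lists under 75th percentile scaling were added after seeing the data.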

Additional observations from a re-analysis of the deposited data

Results flagged for a closer look

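In YSM, the only group with 4 arrays, 3 of 46 Rab genes had 1 array far from the other 3 (Dixon's test at the 95% level), where chance gives about 1 in 20. Rab39 was high on YSM replicate 2, at 8.17 with the next array at 7.83. Rab42 was low on the same replicate, at 5.86 with the next array at 6.40. That array had the fewest detected probes of all (13224). Rab43 was high on YSM replicate 4, at 10.98 with the next array at 10.36.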

How the results depend on the processing

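Of 93 called changes of single Rab genes, 42 kept their direction and call in all 11 alternatives and without each of 25 arrays. Scaling to the 75th percentile lost 22 and reversed 2, namely Rab2a at E12.5 (-0.073, adjusted p = 0.803) and Rab24 in the adult against E10.5 (-0.021, adjusted p = 0.915). It left 6 members called at E12.5 and 0 at E18.5. The mean of all probes lost 11 and reversed Rab6a in the adult against P0 (0.14, adjusted p = 0.444). The strict filter measured 90 of the 93. No filter lost 5 and left 0 members called at E18.5. For the step to E14.5 the count was 1, namely Rab33b, without background correction, with the authors' values, with the strict filter and with the series value table. With 6 adult columns it was 2 at E14.5 and 2 at E18.5. Without each array in turn, the F test called 42 to 44 members, E10.5 against YSM 7 to 11, E12.5 10 to 14, E14.5 0 to 1, E16.5 13 to 19, E18.5 0 to 3, P0 0 to 1, the adult against P0 19 to 26 and the adult against E10.5 22 to 30. The causes were not tested. For members below background the arrays give a bound at most.

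Replicate numbers of the labels did not pair the samples (77 same-numbered pairs from different groups, r from -0.634 to 0.469, and 6 of 23 samples closest to one of their own number). With the replicate number as a block, the F test called 41 members and the comparisons in order 8, 13, 1, 19, 1, 0, 20 and, for the adult against E10.5, 23, with 15 of the 93 changes lost.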
